A study of Mus musculus with 16 samples.

Results

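Immediate early genes were read in brown adipose tissue (BAT) and gonadal white adipose tissue (gWAT) of mice with an adipocyte-directed deletion of the glycolytic enzyme Pgam1. The group comprised 9 genes, Fos, Fosb, Jun, Junb, Egr1, Egr2, Nr4a1, Ier2 and Dusp1, of the 22911 gene symbols that could be matched to probes of the array. Members were taken by name: every probe whose RefSeq accession mapped to one of these symbols was collected, and the brightest probe stood for the gene. All 9 genes were on the array, with 11 probes between them. Dusp1 encodes a phosphatase, so the group is called immediate early genes here and not transcription factors.

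Immediate early genes are transcribed within minutes of a stimulus, without the need for new protein synthesis, and their mRNAs are short-lived. Growth factor, stress and cyclic AMP signals reach them through mitogen-activated protein kinases and protein kinase A, which act on Srf with its Elk partners at CArG boxes and on Creb at cyclic AMP response elements. Fos and Fosb pair with Jun or Junb to form AP-1, Egr1 and Egr2 are zinc finger factors that bind GC-rich sites, Nr4a1 is an orphan nuclear receptor, Ier2 is a nuclear regulator of transcription, and Dusp1 dephosphorylates the kinases that switch the group on. In brown fat, cold and adrenergic stimulation are known to raise several of them.

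RNA came from male mice on a C57BL/6 background, labelled C57BL/6NCrSlc, that were kept at 23 °C on normal chow. Adipo-Pgam1 KO mice (knockouts) carried Adipoq-Cre, in which the adiponectin promoter drives Cre in adipocytes, together with Pgam1 flox/flox, and littermate controls carried Pgam1 flox/flox without Cre (controls). There were 4 arrays for each tissue and genotype and 16 in all, each hybridized with RNA of 1 sample at an age of 16 weeks, except that replicate 4 of the knockouts was labelled 14 weeks in both tissues. The series calls the 4 samples of a group independent but does not name the animals, so p-values measure the spread between these samples.

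Promoter stretches are shown for the members in which a motif that was searched for lay upstream of the start site. Windows from 250 bases before to 50 bases after the start (RefSeq, GRCm38.p6) were found for 7 members, namely Fos, Fosb, Jun, Junb, Egr2, Nr4a1 and Dusp1. Capitals mark the matched letters on either strand, and each stretch is written 5′ to 3′ on the strand of the gene.
Fos (chr12:85473810-85473869, plus strand): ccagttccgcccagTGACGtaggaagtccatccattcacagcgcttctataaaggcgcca
Fosb (chr7:19310081-19310110, minus strand): gcgggTGACGcaagcGCGGGGGCGggtccc
Junb (chr8:84978819-84978878, minus strand): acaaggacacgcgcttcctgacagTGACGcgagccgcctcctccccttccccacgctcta
Egr2 (chr10:67537794-67537823, plus strand): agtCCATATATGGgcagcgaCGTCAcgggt
Nr4a1 (chr15:101266775-101266804, plus strand): tgCGTCAgtggCGCCCCCGCccctctccat
Dusp1 (chr17:26508583-26508642, minus strand): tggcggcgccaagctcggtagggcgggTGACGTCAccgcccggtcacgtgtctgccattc

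The half-site TGACG, the core of the cyclic AMP response element, was found on either strand in 6 of the 7 members, against 20.8% of the 32851 windows of the table. A member counted if any of its windows held the motif, and Egr2 had several, whereas the shares are over single windows. Dusp1 alone of the 7 held the full element TGACGTCA, which overlaps the half-site and was present in 1.79% of all windows. Egr2 held a CArG box, a match found in 1.63% of all windows, and a half-site within the same 30 bases. Fosb and Nr4a1 each held the Egr site GCGNGGGCG beside a half-site, a motif present in 5.55% of all windows. The AP-1 site TGANTCA, present in 7.81% of all windows, had no match in the 7 members, and none of the 5 motifs had a match in the window of Jun. These matches describe letters in a window and were not tested against the expression values. Sites outside the windows were not searched, so a motif without a match here may lie further from the start.

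All values below are log2 processed signal over the 75th percentile of the same array, so that 0 is the level of that percentile, and they were compared only within a probe. The 9 brightest probes were well above background on all 16 arrays, and none of them was saturated. Replicate arrays of a group correlated over genes with r from 0.971 to 0.994. The 75th percentile itself was 401.3 to 451.3 signal units in BAT of controls and 650.2 to 916.2 in BAT of knockouts, so the scaling moved with genotype in BAT. The arrays lay on 3 slides, and in each tissue 3 control arrays lay on another slide than the remaining control and all 4 arrays of the other genotype. Brown adipocyte markers were lower in gWAT than in BAT of controls for 9 of 9 genes and mesothelial markers higher for 6 of 6, as the tissue labels state, and the part of tissue composition in the values was not tested.

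Pgam1 was measured in every sample as the check of the genotype labels. In BAT it was 7.82 to 8.07 in controls and 6.03 to 6.43 in knockouts, lower by 1.74 in log2 (adjusted p = 1.11e-05 in limma). In gWAT it was 5.07 to 5.67 in controls and 5.95 to 6.50 in the arrays labelled as knockout, where it was higher by 0.95 (adjusted p = 0.0139 in limma). The level thus goes against the label in gWAT, and each gWAT direction given here rests on that label.

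**Figure D1:**
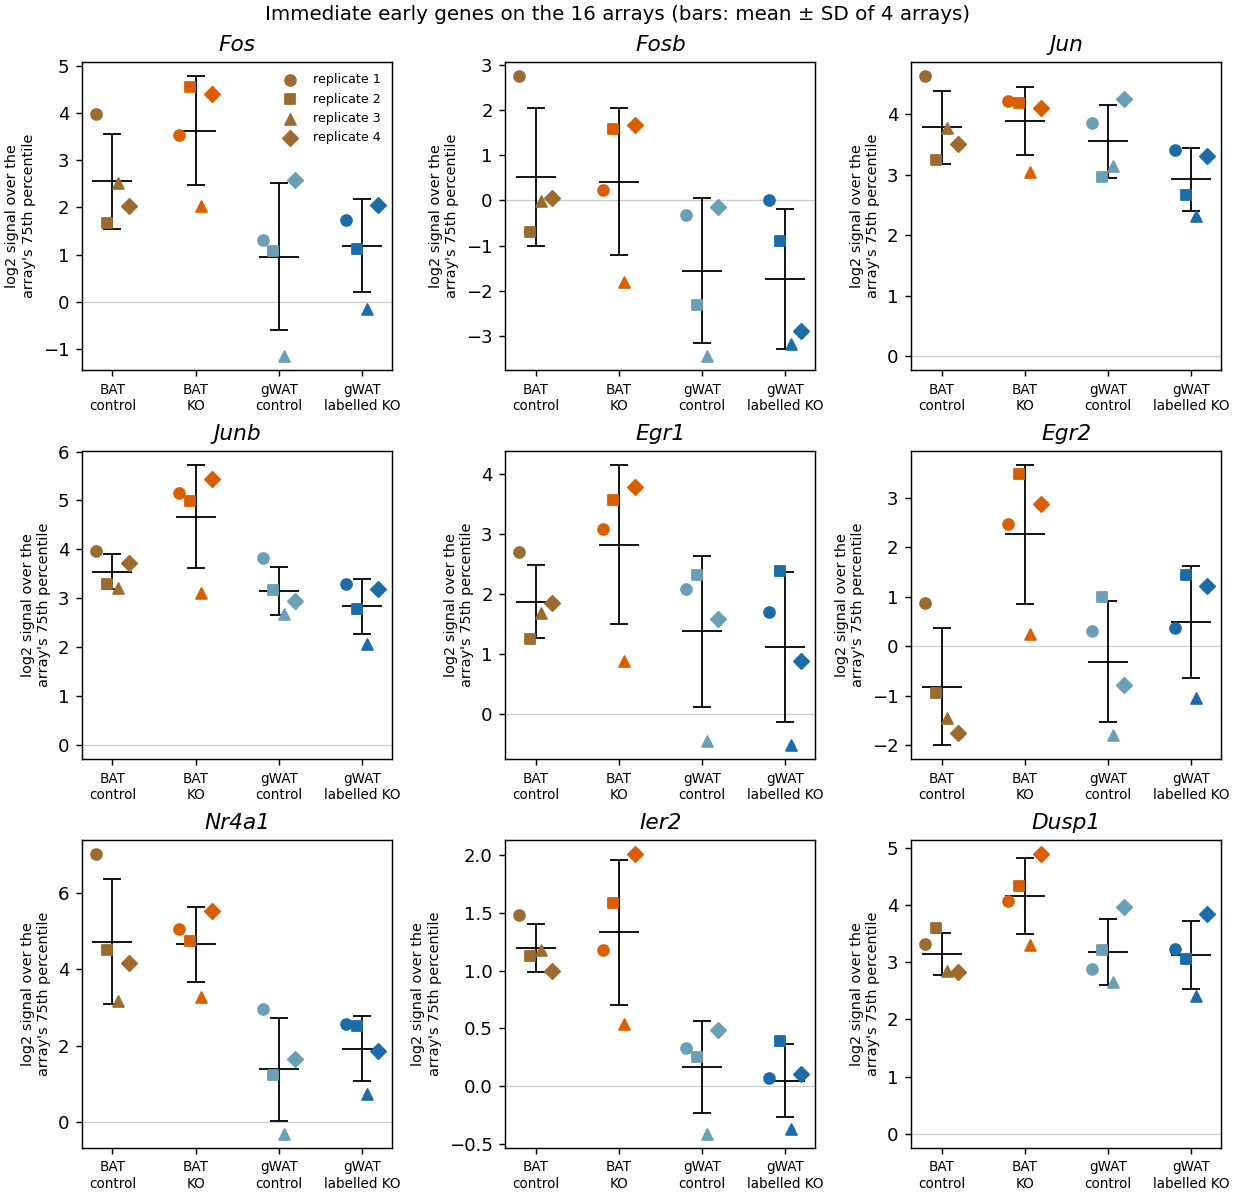
Log2 signal over the array's 75th percentile (y axis) of the 9 immediate early genes on each of the 16 arrays, by tissue and genotype, with marker shapes for replicates 1 to 4 and bars for the mean ± SD of 4 arrays; each panel has its own y axis. Egr2 ran from 0.25 to 3.48 in BAT of knockouts and from -1.76 to 0.88 in BAT of controls, and the markers of replicate 3 sit lowest in 3 of the 4 groups for most genes.

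Replicate 3 stood apart from its group in the immediate early genes. In BAT of knockouts it was the lowest of the 4 arrays for 9 of 9 genes, with a median deviation of -1.56 from the group means. In gWAT arrays labelled as knockout it was lowest for 9 of 9 genes as well, at a median of -1.20, and in gWAT of controls for 8 of 9, at -1.48. In BAT of controls it was lowest for 2 of 9 genes, and there replicate 1 was the highest array for 8 of 9, with a median deviation of 0.84. Over the 12360 genes measured on all arrays, the median deviation of these 3 replicate 3 arrays was between -0.0048 and 0.0629. On replicate 3 of knockout BAT 8 of 10 adipocyte markers were lowest, where 26.5% of all genes were, with a median deviation of -0.33, and endothelial markers had -0.20. On replicate 3 of the gWAT arrays labelled as knockout, 7 of 9 endothelial markers were lowest, where 13.2% of all genes were, with a median deviation of -0.42, and adipocyte markers had 0.026. On replicate 3 of gWAT of controls neither list was low, with medians of 0.11 for adipocyte and 0.064 for endothelial markers. The part of these cells in the low values was not tested. Calls are therefore also given without single arrays.

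**Figure D2:**
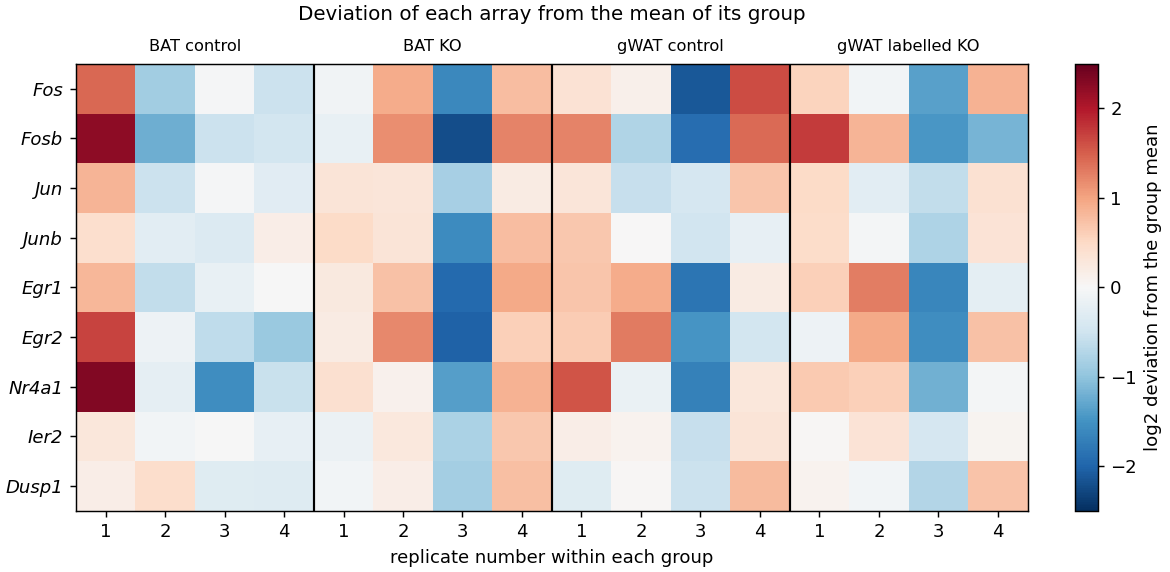
Deviation of each array from the mean of its group (colour, log2) for the 9 genes (rows) over the 16 arrays (columns, ordered by group and replicate number). Replicate 3 forms a blue column in BAT of knockouts (median -1.56), in gWAT of controls (-1.48) and in gWAT arrays labelled as knockout (-1.20), and replicate 1 a red column in BAT of controls (0.84).

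In BAT, Egr2 and Dusp1 rose in knockouts over controls, and the remaining 7 genes did not pass the threshold of an adjusted p of 0.05. The median log2 difference of the 9 genes was 0.95, against -0.081 over the 14280 genes tested. Of the 9 differences 7 were positive, and 5 of these, of Egr2, Dusp1, Junb, Fos and Egr1, were positive under each scaling tried. The 2 genes called, both higher, are 2 of 9, where 61.5% of all genes tested were called, 27.5% as higher and 34.0% as lower. The count of 2 of 9 therefore says nothing particular of these genes. The groups overlapped for all 9 genes, where 57.1% of all genes did not overlap. Because this is bulk tissue, fewer cells of a type and less RNA per cell cannot be told apart.

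Egr2, a zinc finger factor with a known part in early adipocyte differentiation, showed the largest difference of the 9. Its 4 control arrays in BAT read 0.88, -0.95, -1.46 and -1.76, and those of knockouts read 2.47, 3.48, 0.25 and 2.87. Only replicate 3 of the knockouts fell within the control range, below control replicate 1, so the groups overlapped by 1 pair of arrays. The difference was 3.09 (SE 0.77, 95% interval 1.33 to 4.84, adjusted p = 0.00756 in limma), or 8.50-fold. The two-sided exact permutation test of Egr2 alone gave p = 0.0571, where the smallest p that 4 arrays against 4 allow is 0.0286.

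Dusp1, the phosphatase that ends kinase signalling to the group, read 3.31, 3.59, 2.85 and 2.83 in BAT of controls and 4.08, 4.33, 3.31 and 4.90 in BAT of knockouts. Again replicate 3 was the 1 array of the knockouts inside the control range. The difference was 1.01 (SE 0.33, adjusted p = 0.0246 in limma), or 2.01-fold, and its exact permutation p was 0.0857.

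Among the AP-1 subunits, Junb came closest to the threshold. It read 3.97, 3.28, 3.21 and 3.71 in BAT of controls and 5.15, 4.99, 3.11 and 5.44 in BAT of knockouts. Replicates 1, 2 and 4 lay above every control and replicate 3 below every control. The difference of 1.13 (SE 0.47) did not pass (adjusted p = 0.0662 in limma). Junb passed in 5 of 15 alternatives that kept all arrays. These were quantile normalization (adjusted p = 0.0384), normexp background correction (adjusted p = 0.0313), 1 fit over the 16 arrays (adjusted p = 0.0368 in limma), spike-in scaling and the replicate number as a block. The second Junb probe, which is dimmer, differed by 0.81. The second Fosb probe was well above background on 1 of the 16 arrays and was not used.

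Fos, the partner of the Jun proteins, read 3.99, 1.68, 2.53 and 2.03 in BAT of controls and 3.54, 4.56, 2.03 and 4.40 in BAT of knockouts. Control replicate 1 lay above 2 of the knockout arrays and knockout replicate 3 among the controls, and the difference of 1.08 did not pass (SE 0.65, adjusted p = 0.177 in limma). Fosb ran from -0.71 to 2.75 in controls and from -1.81 to 1.66 in knockouts, with a difference of -0.10 (95% interval -2.23 to 2.03). Jun ran from 3.24 to 4.63 and from 3.05 to 4.21, with a difference of 0.10 (95% interval -0.70 to 0.90). These intervals include large differences in both directions for Fosb and differences of up to 0.90 for Jun.

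Egr1, the close relative of Egr2, read 2.71, 1.25, 1.68 and 1.86 in BAT of controls and 3.08, 3.57, 0.89 and 3.79 in BAT of knockouts. As with Junb, replicates 1, 2 and 4 exceeded every control and replicate 3 lay below every control. The difference of 0.95 did not pass (SE 0.62, adjusted p = 0.207 in limma). Nr4a1 differed by -0.071 (95% interval -1.90 to 1.76) and Ier2 by 0.13 (95% interval -0.52 to 0.79).

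**Figure D3:**
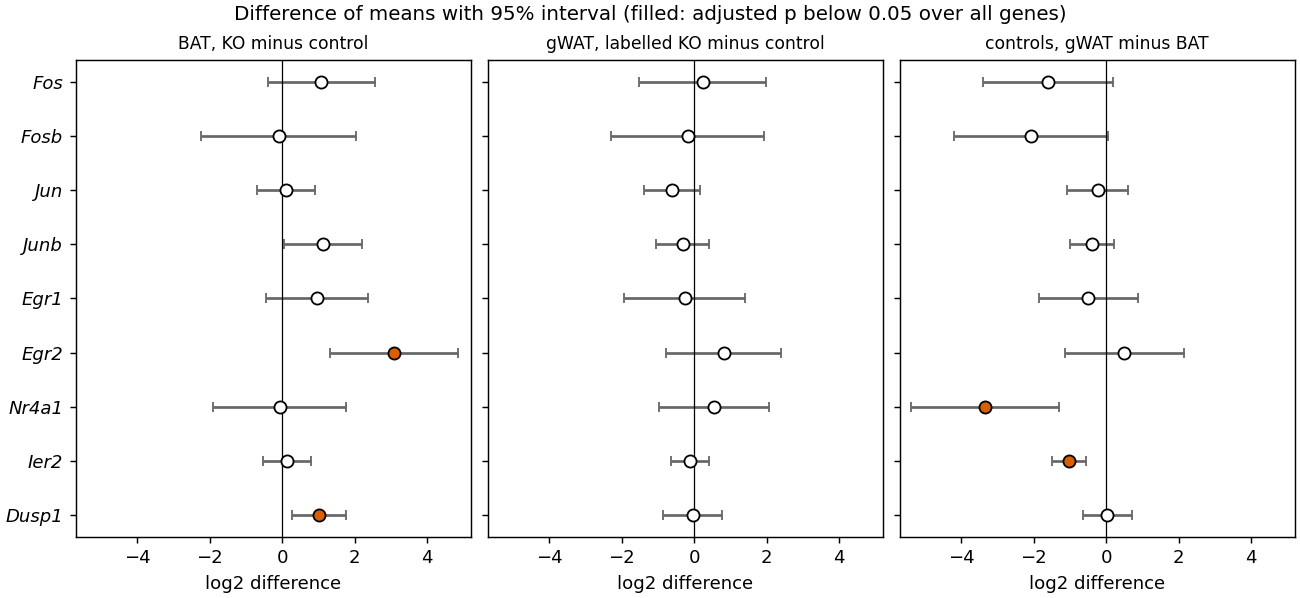
Log2 difference of group means (x axis) with its 95% interval for the 9 genes (y axis) in BAT, in gWAT and between the tissues of controls; filled circles have an adjusted p under 0.05 over all genes tested. Egr2 (3.09) and Dusp1 (1.01) were called in BAT, no gene in gWAT, and Nr4a1 (-3.34) and Ier2 (-1.03) between tissues.

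The number of genes called in BAT rested on single arrays. Over all genes, 7884 to 8720 were called in BAT with 1 array left out, against 8777, or 61.5%, with all 8 arrays. Counts of the 9 genes called with 1 array left out therefore say nothing particular of them. Without knockout replicate 3, 5 genes were called higher, with Junb at a difference of 1.65 (adjusted p = 0.000515), Egr1 at 1.60 (adjusted p = 0.00487) and Fos at 1.61 (adjusted p = 0.0344 in limma) beside Egr2 and Dusp1. That array was the lowest of its group for all 9 genes. Leaving it out had to raise each difference, so the added calls support nothing. Without control replicate 1 the count was 3, Fos being the addition (adjusted p = 0.0498 in limma). Without control replicate 3 or 4, or knockout replicate 2 or 4, it was 1, since Dusp1 no longer passed (adjusted p from 0.0580 to 0.0633 in limma). Egr2 was called with any of the 8 arrays left out, with differences from 2.68 to 3.76. Leaving out knockout replicate 4, the array labelled 14 weeks, gave 2.89 for Egr2 and 0.76 for Dusp1. Without replicate 3 of every group, an alternative chosen after seeing the data, Egr2, Dusp1, Junb and Egr1 were called, 4 genes in all. The share over all genes in that fit is not given, so nothing is read from this count.

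**Figure D4:**
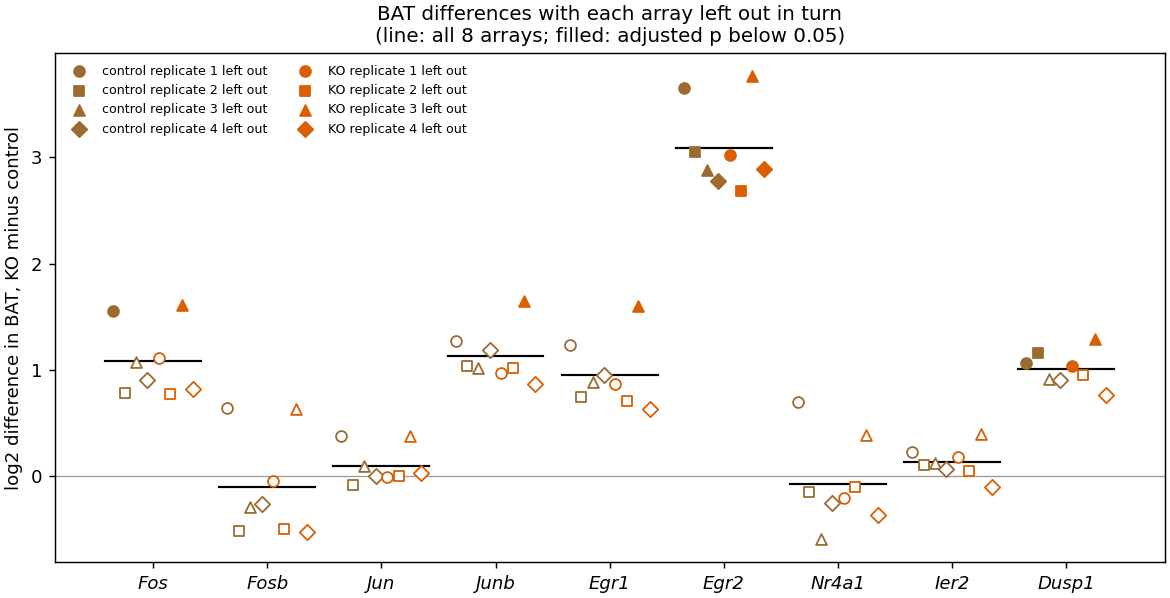
Log2 difference in BAT, knockout minus control (y axis), of each of the 9 genes (x axis) with each of the 8 arrays left out in turn; horizontal lines give the difference over all 8 arrays and filled markers an adjusted p under 0.05. Egr2 stays between 2.68 and 3.76 and is filled throughout, while Junb (1.65), Egr1 (1.60) and Fos (1.61) are filled without knockout replicate 3. That array was the lowest of its group for all 9 genes, so leaving it out had to raise each difference.

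The scaling also set the count, since the median difference over all genes in BAT was 0.46 with spike-in scaling and -0.67 with scaling to Actb and Rplp0. Egr2 and Dusp1 were positive under both, at 3.63 and 1.55 with the spike-ins and at 2.50 and 0.42 with Actb and Rplp0, while Jun and Ier2 turned negative under the latter. Relative to the median of all genes, Egr2 was higher by 3.17 and Dusp1 by 1.09 with either. These scalings shift all genes of an array by the same amount, so this agreement was fixed in advance and supports nothing. The genes called were 6 and 1, respectively, and over all genes 7071 were called higher and 1782 lower with the spike-ins, 1917 and 8901 with Actb and Rplp0, against 3928 and 4849. With slide taken as a fixed block, which is the comparison of the 4 knockout arrays with the 1 control array on their slide, Egr2 was 4.02 (adjusted p = 0.0297 in limma) and Dusp1 was 1.32 (adjusted p = 0.0738 in limma).

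Markers of other cells moved with genotype in BAT, where 27.5% of all genes tested were called higher and 34.0% lower. Of 12 macrophage markers, 10 were higher in knockouts, and their summed signal relative to the 75th percentile was 32.2 to 55.3 in controls and 156 to 223 in knockouts. Of 11 fibroblast and progenitor markers, 9 were higher, with sums of 182 to 280 against 344 to 525, and of 10 adipocyte markers, 9 were lower, with sums of 2991 to 3543 against 988 to 1393. Of 9 brown adipocyte markers, 6 were lower, with sums of 3217 to 3440 against 1128 to 1841. Of 3 neutrophil markers tested, 1 was called lower and none higher, but 2 had positive differences and the median difference was 0.75. The sum over the 6 neutrophil markers on the array was 115.5 to 144.8 against 86.7 to 94.3. Skeletal muscle markers summed to 2.98 to 4.62 in controls and 2.60 to 101 in knockouts, the highest on replicate 1. The part of these cells in the differences of Egr2 and Dusp1 was not tested.

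In gWAT none of the 9 genes passed the threshold, where 17.8% of the 14149 genes tested were called, 9.99% as higher and 7.85% as lower. The differences between the arrays labelled as knockout and controls ran from -0.62 for Jun to 0.81 for Egr2, with a median of -0.12 against 0.047 over all genes tested. With spike-in scaling, Fosb, Junb, Egr1, Ier2 and Dusp1 turned from negative to positive. The groups overlapped for all 9 genes, where 24.2% of all genes did not overlap, and the second Junb probe differed by 0.55 where the brightest differed by -0.32. At an unadjusted p under 0.05, limma and the methods' t-test likewise called 0 of the 9. Over all genes 1414 were called higher and 1111 lower, a split that became 5479 and 361 with spike-in scaling and 983 and 401 with each array centred on its median, under which the median of all genes was 0.44 and 0.17.

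Egr2 in gWAT read 0.31, 0.99, -1.80 and -0.78 in controls and 0.36, 1.43, -1.05 and 1.22 in the arrays labelled as knockout. The groups overlapped, with replicate 3 lowest in both, and the difference of 0.81 (SE 0.70) had an adjusted p of 0.445 in limma. Jun read 3.85, 2.97, 3.14 and 4.24 in controls and 3.41, 2.67, 2.32 and 3.30 in the labelled arrays, a difference of -0.62 (SE 0.34, adjusted p = 0.233 in limma). Dusp1 ran from 2.65 to 3.97 in controls and from 2.41 to 3.85 in the labelled arrays, with a difference of -0.043 (95% interval -0.85 to 0.76). Fos, Fosb, Egr1, Egr2 and Nr4a1 had 95% intervals that spanned more than 3 log2 units, so that a rise of 1 log2 unit lay inside the interval of each of these genes. With the slide as a fixed block, where 1 control array remains for comparison, the difference was -1.32 for Jun and 1.27 for Egr2, and neither passed. Macrophage markers were higher for 3 of 12 genes in the labelled arrays, with sums of 87.0 to 130 in controls and 106.6 to 378.7 there, and brown adipocyte markers for 3 of 6, with sums of 12.1 to 20.6 and 64.8 to 175. Over all genes, 9.99% were called higher in the labelled arrays. The part of these markers' cells in the values was not tested.

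The genotype difference itself was compared between the tissues over all 16 arrays. None of the 9 genes passed, where 48.3% of the 14820 genes tested did, 27.4% as higher and 21.0% as lower. Of the 9 estimates 8 were negative, that is, lower in gWAT than in BAT, but Fosb and Ier2 turned positive with scaling to Actb and Rplp0. Junb had -1.44 (SE 0.62, adjusted p = 0.0665 in limma), Egr2 -2.28 (SE 1.13, adjusted p = 0.111 in limma) and Dusp1 -1.05 (SE 0.52, adjusted p = 0.108 in limma). At an unadjusted p under 0.05, 1 gene, Junb, was called. Without BAT knockout replicate 3, Junb, Egr2 and Dusp1 were called, without BAT control replicate 1 Egr2, and without gWAT replicate 4 of the labelled arrays Dusp1. Over all genes, 6504 to 7610 were called with 1 array left out, against 7162 with all arrays. BAT knockout replicate 3 was the lowest array of its group for all 9 genes, so leaving it out had to lower each estimate. Quantile normalization called Junb (-1.77) and Dusp1 (-1.34), with 3357 genes higher and 3820 lower over all genes, against 4057 and 3105, and scaling to Actb and Rplp0, with 7168 and 1395 and a median of all genes of 0.61, called none.

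Between the tissues of controls, Nr4a1 and Ier2 were lower in gWAT than in BAT, and these were the 2 genes of the 9 that passed, where 64.7% of the 14304 genes tested were called, 35.4% as lower and 29.3% as higher. They were also the 2 genes whose groups did not overlap, where 60.8% of all genes did not overlap and 33.6% were lower without overlap. The median difference of the 9 genes was -0.49 against -0.097 over all genes tested.

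Nr4a1, a nuclear receptor induced in brown fat by adrenergic stimulation, read 7.04, 4.51, 3.17 and 4.17 in BAT of controls and 2.96, 1.22, -0.31 and 1.66 in gWAT of controls. The lowest BAT array lay above the highest gWAT array by a narrow margin, and replicate 1 was the highest array in both tissues. The difference was -3.34 (SE 0.90, adjusted p = 0.0103 in limma). Ier2 read 1.48, 1.13, 1.18 and 0.997 in BAT and 0.33, 0.25, -0.41 and 0.49 in gWAT. Every BAT array exceeded every gWAT array, with a difference of -1.03 (SE 0.21, adjusted p = 0.00228 in limma). The exact permutation p was 0.0286 for both, the smallest that 4 arrays against 4 can give, among 27 such tests of the 9 genes.

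Fosb and Fos had large tissue differences that did not pass. Fosb was -2.08 (SE 0.93, adjusted p = 0.0790 in limma), with 2 of 4 gWAT arrays below every BAT array. Fos was -1.60 (SE 0.79, adjusted p = 0.104 in limma), with 3 of 4 gWAT arrays below every BAT array. Junb (-0.39), Egr1 (-0.49), Jun (-0.24), Egr2 (0.50) and Dusp1 (0.031) differed by less than 1 log2 unit, and Jun and Dusp1 changed sign with other scalings. Without gWAT control replicate 1, Junb was called as well, and without gWAT control replicate 4, Fos. Over all genes, 8464 to 9134 were called with 1 array left out, against 9254 with all arrays. With slide taken as a fixed block, which compares BAT control replicate 4 with the 3 gWAT controls of its slide and uses the other arrays only for the spread, Ier2 was -0.94 (adjusted p = 0.0542 in limma) and Nr4a1 -2.88 (adjusted p = 0.196 in limma). Over all genes, 5057 were called higher and 4347 lower with quantile normalization, 5196 and 3830 with spike-ins, and 2937 and 7141 with Actb and Rplp0, against 4184 and 5070, and the median of all genes was 0.13 with spike-ins and -0.43 with Actb and Rplp0.

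The level of each gene was ordered over the 4 groups. The mean was highest in BAT of knockouts for 7 genes and in BAT of controls for Fosb and Nr4a1. It was lowest in gWAT arrays labelled as knockout for 6 genes, in gWAT of controls for Fos and Nr4a1, and in BAT of controls for Egr2. Of the 27 pairs of neighbouring groups in these orders, 25 overlapped. Sorting each gene's groups by their means favours overlap of neighbours, and the share over all genes was not computed. The count therefore says nothing particular of these genes. The exceptions were Nr4a1 between BAT of knockouts (4.65 ± 0.97, SD, n = 4) and gWAT arrays labelled as knockout (1.91 ± 0.86, SD, n = 4), and Ier2 between BAT and gWAT of controls (1.20 ± 0.21 and 0.16 ± 0.40, SD, n = 4 each).

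The spread within groups was a further feature of these genes. The SD pooled over the 4 groups was 1.58 for Fosb, 1.25 for Nr4a1, 1.24 for Egr2, 1.20 for Fos and 1.15 for Egr1, against a median of 0.23 over the 12360 genes measured on all arrays. Fosb ranked 29, Nr4a1 54, Egr2 55, Fos 60 and Egr1 66 from the highest. Junb (0.67), Jun (0.57) and Dusp1 (0.56) ranked between 334 and 592, and Ier2 was the steadiest of the 9 with an SD of 0.42 and a rank of 1602. In BAT the SE of the genotype difference was 0.29 for Ier2 and 0.33 for Dusp1, against 0.93 for Fosb and 0.80 for Nr4a1.

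Other immediate early genes, a list of 47 without the 9, were read beside them. Of 44 tested in BAT, 23 were higher and 2 lower in knockouts, where 27.5% of all genes tested were called higher and 34.0% lower, with a median difference of 0.95 against -0.081 over all genes tested. The share called in either direction, 61.5% over all genes, was thus near that of the list. Those with the largest differences among genes whose groups did not overlap were Atf3, a stress-induced partner of Jun (3.66, adjusted p = 0.000893 in limma), Ppp1r15a, which restores translation after stress (2.60, adjusted p = 1.60e-05), Dusp4, a nuclear phosphatase of the same kinases (2.42, adjusted p = 0.00327), and Fosl2, a further AP-1 subunit (2.39, adjusted p = 0.000172 in limma). They were positive under each scaling tried. Their difference from the 9 genes was not tested.

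In gWAT, 43 of the other immediate early genes were tested, of which Dusp4 (1.78, adjusted p = 0.0345) and the small Maf protein Maff (1.50, adjusted p = 0.0329) were higher and the transcriptional coregulator Cited2 (-1.10, adjusted p = 0.0292 in limma) lower in the arrays labelled as knockout, where 9.99% of all genes were called higher and 7.85% lower. These 3 calls rested on single arrays. Dusp4 and Maff did not pass without control replicate 3 or 4 or without labelled replicate 1, 2 or 3 (adjusted p up to 0.0888 for Dusp4 and 0.0889 for Maff in limma), and Cited2 did not without control replicate 2 or labelled replicate 1, 2 or 3 (adjusted p up to 0.0837 in limma). In the comparison of the genotype difference between tissues, 12 of 44 were lower in gWAT and 1 higher, where 21.0% of all genes were called as lower and 27.4% as higher. Fosl2 (-2.40, adjusted p = 0.000147), Cited2 (-2.53, adjusted p = 0.000265) and Ppp1r15a (-1.76, adjusted p = 0.000764 in limma) were among them. Atf3 (-1.83, adjusted p = 0.130) and Dusp4 (-0.63, adjusted p = 0.512 in limma), both named in BAT, did not pass there. In gWAT the mean of Atf3 was -1.34 in controls and 0.49 in the labelled arrays, a difference that was not called.

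The arrays that were low for the 9 genes were low for these others too. Of 42 measured on all arrays, 36 were lowest on replicate 3 in BAT of knockouts, where 26.5% of all genes were lowest, and the median deviation was -0.53. In gWAT, replicate 3 was lowest for 22 of 42 in controls and for 21 of 42 in the labelled arrays, where 12.4% and 13.2% of all genes were lowest.

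**Figure D5:**
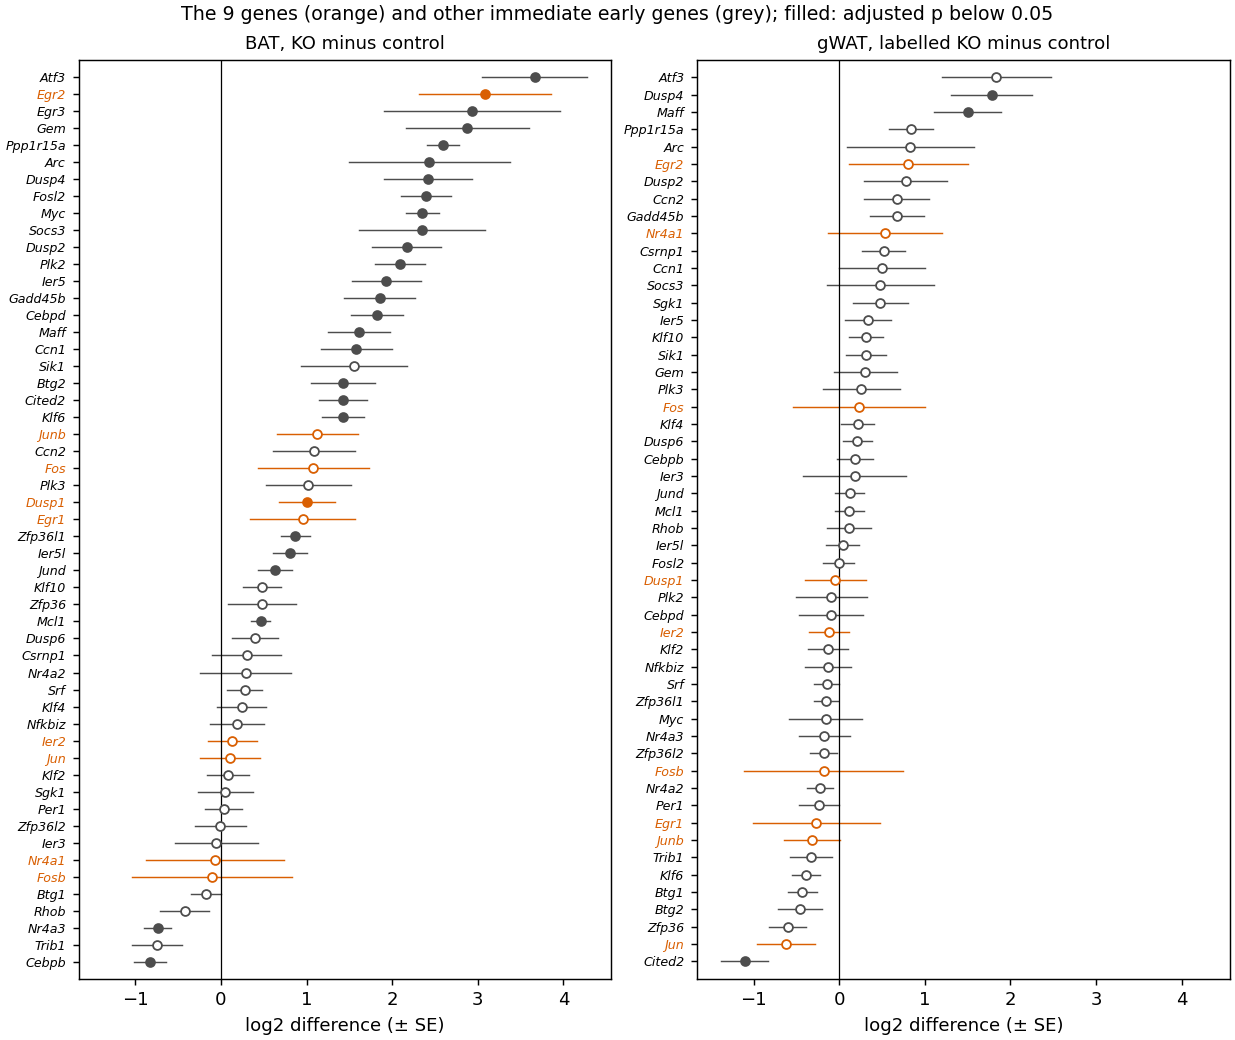
Log2 difference ± SE (x axis) of the 9 immediate early genes (orange) and of the other immediate early genes tested (grey), sorted by size, in BAT (knockout minus control) and in gWAT (arrays labelled as knockout minus control); filled circles have an adjusted p under 0.05. In BAT 2 of 9 and 25 of 44 are filled, and in gWAT 0 of 9 and 3 of 43.

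Upstream of the group, the kinases and transcription factors were called in both directions in BAT. Of 39 tested, 12 were higher and 12 lower in knockouts, with a median of 0.0086, where 27.5% of all genes were called higher and 34.0% lower. Together these are the share called over all genes, 61.5%, so the count says nothing particular of the list. The ribosomal S6 kinase Rps6ka1 was higher by 1.76 (adjusted p = 9.45e-05) and Mapk7 by 0.93 (adjusted p = 0.000149), while Prkaca, the catalytic subunit of protein kinase A, was lower by 1.34 (log2 difference -1.34, adjusted p = 7.85e-05) and Atf2, a Creb relative, had -0.84 (adjusted p = 9.78e-05 in limma). In gWAT 6 rose and 2 fell in the labelled arrays, among them Mef2d (1.04, adjusted p = 0.0456), Map2k1 (0.89, adjusted p = 0.00830), Hras (0.73, adjusted p = 0.0152) and Map2k2 (0.66, adjusted p = 0.0212 in limma), where 9.99% of all genes were called higher and 7.85% lower. Mef2d passed only without labelled replicate 1 or 4 among the 8 fits with 1 array left out (adjusted p up to 0.0971 without the others), and Map2k2 did not pass without control replicate 2 or labelled replicate 1, 2 or 3 (adjusted p up to 0.0620 in limma). Srf, the factor that reads the CArG box, was among the list of other immediate early genes and was called in neither tissue.

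Heat shock genes, which answer to protein damage, were read as a second kind of rapid response. Of 12 tested in BAT, none was higher and 2 were lower in knockouts, where 27.5% of all genes were called higher and 34.0% lower. The 2 were the mitochondrial chaperonins Hspd1 (-0.54, adjusted p = 0.00242) and Hspe1 (-0.47, adjusted p = 0.0217 in limma), and both turned slightly positive with spike-in scaling. Hspe1 did not pass without control replicate 2 (adjusted p = 0.0603 in limma). In gWAT 1 of 12, Hspb1, was higher in the labelled arrays (0.79, adjusted p = 0.0133 in limma), where 9.99% of all genes were called higher. On replicate 3 of BAT of knockouts, 4 of the 12 were lowest in their group, with a median deviation of -0.19, against 9 of 9 immediate early genes. Over all genes, 26.5% were lowest on that array.

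The genes most like the group were sought among the 12360 genes measured on all arrays, by the root mean square difference from the median of the 9 over the 16 arrays. With every gene centred on its mean over all arrays, the closest were Pde4b, a phosphodiesterase that degrades cyclic AMP (0.71), Gpr162 (0.72), Snhg16 (0.75), Sbno2 (0.76) and the kinase Plk3 (0.76). With every gene centred on its group means, which leaves only the variation between replicates, they were the protease Adamts1 (0.34), the phosphatase Dusp2 (0.35), Apold1 (0.36), Ier5 (0.40) and the kinase Pim1 (0.41). The members themselves lay between 0.50 for Egr1 and 1.05 for Egr2 on the first measure and between 0.36 for Junb and 0.83 for Fosb on the second. The median was made from these 9 genes, so their nearness to it is partly built in. The distance of a gene that does not vary was not computed, so the values only rank the genes. Dusp2, Ier5 and Plk3 also stood on the list of other immediate early genes.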

How the data were processed

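Total RNA of BAT and gWAT was hybridized to 1-colour Agilent mouse arrays. The authors scanned them with Agilent Feature Extraction 10.7.1.1, and the deposited scanner files hold spot intensity after background subtraction (processed signal) with flags. The deposited table holds the authors' normalized values, a linear ratio of each probe's signal to a value close to the array's 75th percentile, made in GeneSpring GX. Members and gene lists were chosen with earlier results of these data known. Flagged outlier and control spots were left out, spots of a probe averaged, and log2 intensity reduced by the array's 75th percentile. Of 35886 RefSeq probes, 91.9% matched a symbol (GRCm38.p6), and the brightest probe represented a gene. A gene was tested if all 4 arrays of at least 1 compared group had its probe well above background.

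Genotypes were compared within each tissue, tissues within controls, and the genotype difference between tissues over 16 arrays, with limma 3.58.1 (R 4.3.3) and Benjamini-Hochberg adjustment over all genes tested at 0.05. Two-sided exact permutation tests used scipy 1.17.1. The fit was tested on simulated data. All 9 genes are named, and from each further list up to 4 genes per tissue (2 for heat shock) with the largest called differences whose groups did not overlap. Precision is limited by 4 arrays per group. Alternatives covered scaling, background correction, filters, probes, slide and scan day, replicate number, the deposited table, the methods' t-test and single arrays left out. Normexp was run on the median spot signal, not the mean. The labels give 100 ng of RNA per array, and the methods another amount.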

Additional observations from a re-analysis of the deposited data

Results flagged for a closer look

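Among the 9 genes and the 17 other genes named, 104 groups of 4 arrays were looked at for a single array far from the others, and chance marks about 1 in 20 such groups. The arrays so marked numbered 5, about the number chance gives. Jun in BAT of knockouts had replicate 3 far below the rest, with a gap of 0.902 of the group's range. Fosl2 in gWAT of controls had replicate 3 lowest (0.883), Hspe1 in gWAT arrays labelled as knockout replicate 4 lowest (0.876), Map2k2 in BAT of controls replicate 4 lowest (0.878), and Ppp1r15a in gWAT arrays labelled as knockout replicate 1 highest (0.948).

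The difference in gWAT minus that in BAT passed the interaction test of limma for 12 of the 17 other genes named, where 48.3% of all genes passed. These 17 were named for called differences within 1 tissue, which favours a difference between tissues, so the count supports nothing about them or about the 9, of which none passed. The direction in gWAT rests on the label. The difference was below 0 for the AP-1 subunit Fosl2 (-2.40), Cited2 (-2.53), Ppp1r15a (-1.76), Rps6ka1 (-1.25) and Mapk7 (-0.67). It was above 0 for Prkaca (1.81), Map2k2 (1.31), Hspd1 (1.30), Hras (1.15), Map2k1 (0.98), Hspe1 (0.86) and Atf2 (0.47).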

How the results depend on the processing

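Members called in BAT, 2 of 9, were 6 with spike-in scaling, 1 with Actb and Rplp0 scaling, 1 with the slide as a fixed block, 1 with the methods' t-test after Benjamini-Hochberg, 3 (Junb added) with quantile normalization, normexp or 1 fit over 16 arrays, and 1 to 5 with 1 array left out. In the difference between tissues, 0 became 2 with quantile normalization, 1 with normexp, 1 with the scan day as a block, and 0 to 3 with 1 array left out. Between tissues of controls, 2 became 0 with the slide as a fixed block and 2 to 3 with 1 array left out. The cause of these changes was not tested.

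Over all genes, 2525 calls in gWAT were 1384 with median centring, 5840 with spike-in scaling, 1138 without a filter, 184 with the slide or the scan day as a fixed block, 4040 with 1 fit over 16 arrays, 1618 with the methods' t-test after adjustment, 4673 unadjusted, and 1080 to 3211 with 1 array left out. It was lower by over 1.5 times for genotype in gWAT without control replicate 2 (1188) or 3 (1581) or labelled replicate 1 (1080), 2 (1283) or 3 (1144). The difference between tissues, 7162, was 3265 with the slide and 4560 with the scan day as a block. In BAT, 8777 was 7884 to 8720, in the difference between tissues 6504 to 7610, and between tissues of controls, 9254 was 8464 to 9134 with 1 array left out. Scan day could not be fitted in BAT, which was read on 1 day.

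Replicate numbers were not shown to pair the arrays. The correlation of same-numbered control and Adipo-Pgam1 KO arrays was 0.0004 to 0.219 in BAT and -0.142 to 0.435 in gWAT, and not every array correlated best with its own number. Between tissues it was over 0.1 for replicates 1 to 3 (0.157 to 0.224 in controls, 0.107 to 0.295 in knockouts) and below 0 for replicate 4 (-0.0726 and -0.185), so a mouse shared by both tissues was not settled. With the replicate block, calls in gWAT were 1087, and Junb, Egr2 and Dusp1 passed in the difference between tissues, which makes 3 of 9, against 0 of 9 with the number as a random block within genotype, while 3 were called in BAT, with Junb added, and 3 between tissues of controls, with Fosb added.

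Signs that changed belonged to values that had not passed, except Hspd1 (0.0027) and Hspe1 (0.065) in BAT with spike-in scaling. In BAT, Nr4a1 became 0.20 with quantile normalization, 0.47 with spike-ins, 0.017 with normexp, 0.48 with the slide as a fixed block and 0.026 as a random block. Fosb became 0.44 with spike-ins and 0.36 with the slide, and with Actb and Rplp0, Jun became -0.49 and Ier2 -0.46. In gWAT, median centring gave 0.0047 for Ier2 and 0.079 for Dusp1. Spike-ins gave 0.21 for Fosb, 0.073 for Junb, 0.12 for Egr1, 0.27 for Ier2 and 0.35 for Dusp1, the mean of probes gave 0.12 for Junb, and slide or scan day gave -1.40 for Fos. In the difference between tissues, Fosb became 0.015 with median centring and 0.45 with Actb and Rplp0, where Ier2 was 0.28 and Maff 0.42. With the slide, Nr4a1 became -0.22, Dusp4 0.16 and Maff 0.28, and with the scan day Dusp4 0.14 and Maff 0.11. Between tissues of controls, Jun became 0.061 with quantile normalization, and Dusp1 -0.0071 with median centring, -0.30 with Actb and Rplp0 and -0.23 with the scan day.

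With 1 array left out, signs changed within these ranges. In BAT, Fosb ran from -0.52 to 0.64, Jun from -0.078 to 0.38, Ier2 from -0.10 to 0.40 and Nr4a1 from -0.59 to 0.70. In gWAT, Fos ran from -0.47 to 0.78, Fosb from -0.81 to 0.30, Egr1 from -0.88 to 0.28, Ier2 from -0.31 to 0.024, Nr4a1 from -0.033 to 1.06 and Dusp1 from -0.28 to 0.22. In the difference between tissues, Fosb ran from -0.82 to 0.40, Nr4a1 from -0.17 to 1.13 and Maff from -0.43 to 0.15. Between tissues of controls, Jun ran from -0.47 to 0.045, Egr1 from -0.80 to 0.12 and Dusp1 from -0.23 to 0.21. Without replicate 3 of every group, chosen after seeing the data, Fosb in BAT was 0.46, Fos in gWAT -0.023, Dusp1 in gWAT 0.024 and Egr1 between tissues 0.056. There 4 members were called in BAT, 3 in the difference between tissues, and 463 of all genes for genotype in gWAT.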
